A study of Mus musculus with 12 samples.

Results

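The nuclear genes for subunits of the respiratory chain and the ATP synthase were followed in single-cell RNA-seq of the mouse mammary gland. The members were all genes whose symbols are Nduf plus a subunit letter (a, b, c, s or v) and a number with nothing after it, or begin with Uqcr, with Cox4 to Cox8 plus the letter a, b or c, or with Atp5, and pseudogenes were left out. This gave 77 of 27998 listed genes: 36 for complex I, 8 for complex III, 16 for complex IV and 17 for the ATP synthase. Some subunits carry other kinds of symbols and stand outside the rule (Cox4i1, Cox4i2, Cyc1, Usmg5, Ndufab1, Ndufa4l2), as does the electron carrier cytochrome c (Cycs). In each library, UMIs (molecule tags that count captured transcripts) were summed over the cells of a population gated on marker genes, and a level in CPM is a gene's UMIs in every 1000000 UMIs of that sum.

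The glands came from female C57BL/6J mice, 43 weeks old in all 12 groups, and each group was 1 library. Intact mice received no VCD. All other mice received 4-vinylcyclohexene diepoxide (VCD), which destroys ovarian follicles, at 160 mg/kg/day for 15 days from 9 weeks of age, so even the vehicle group lacked ovarian hormones. Diets with or without polybrominated diphenyl ethers (PBDE, flame retardants) began from 100 days after VCD onset. VCD_Vehicle, VCD_E2 and VCD_E2_P4 ate matched food with DMSO. E2 (17β-estradiol) was given at 1 µg/animal/day and P4 (progesterone) at 1 mg/animal/day for the last week. VCD_Low_PBDE, VCD_Low_E2 and VCD_Low_E2_P4 ate PBDE-47, PBDE-100 and PBDE-153 at 0.05, 0.0028 and 0.0063 mg/kg/day for 20 weeks. VCD_High_PBDE, VCD_High_PBDE_E2 and VCD_High_PBDE_E2_P4 ate 1, 0.056 and 0.126 mg/kg/day for 1 week, so dose and duration cannot be told apart. VCD_E2_ICI received E2 plus a single 5 mg dose of ICI, an estrogen receptor degrader, and VCD_Vehicle_NormEnv was a further vehicle group with possible PBDE exposure from cage plastics. The comparisons use the 9 libraries that cross 3 hormone states with 3 PBDE levels, so the libraries of a hormone state serve as its replicates across PBDE levels. Nothing in the sources ties a library to separate animals, so p-values measure the spread between these libraries.

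Oxidative phosphorylation is the route by which mitochondria make most of the ATP of a resting cell. Complex I and complex III pass electrons from NADH towards cytochrome c, complex IV hands them to oxygen, and the proton gradient that these complexes build drives the ATP synthase. Most subunits are encoded in the nucleus and a few in mitochondrial DNA, and several complex IV subunits have isoforms restricted to heart, skeletal muscle, brown fat or testis.

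The 12 libraries held 58620 barcodes, of which 46257 passed the cell filters. They held 41737881 to 109224969 UMIs each, and any 2 libraries shared 1 to 185 barcodes. Fibroblasts numbered 29024, and each subset was gated on a pair of genes. The Dpp4/Pi16 subset held 10123 cells (543 to 1359 a library), the Fabp4/Lpl subset 7277 (174 to 888), the Gdf10/F3 subset 1607 (63 to 183) and the Tnc/Mfap4 subset 377 (13 to 77). Immune cells (Ptprc and Cd52) numbered 5264, and endothelial cells (Pecam1 and Cdh5) 119, of which only 3 libraries had 10 or more. The file names of 5 libraries (Intact, VCD_Vehicle, VCD_E2, VCD_E2_P4 and VCD_Low_PBDE) ended in X3SC3 and those of the other 7 in XCSCR. In the layout, all no-PBDE libraries had the former ending and all high-PBDE libraries the latter, so high PBDE and the ending cannot be told apart there. At low PBDE, VCD_Low_PBDE had the former ending and VCD_Low_E2 and VCD_Low_E2_P4 the latter. Hormone and the ending thus cannot be told apart within that PBDE level.

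Of the 77 genes, 4 are shown first by the sequence just before their transcription start (RefSeq models, GRCm38.p6, printed 5′ to 3′ on the gene's strand). They are a pair that was called with E2 in the most fibroblast subsets and a pair of isoforms highest in different fibroblast subsets. The stretches of Ndufa4, Cox8b and Cox7a1 end where the first annotated transcript begins, and that of Atp5g2 is 30 bases around a motif inside the gene as GENCODE annotates it. Ndufa4 (ENSMUSG00000029632, chromosome 6, 11900292 to 11907497, minus strand), first described as a complex I subunit and now known to associate with complex IV, and Atp5g2 (ENSMUSG00000062683, chromosome 15, 102662864 to 102672352, minus strand), 1 of the genes for the membrane c ring of the ATP synthase, were higher with E2 in several fibroblast subsets. Cox8b (ENSMUSG00000025488, chromosome 7, 140898945 to 140900446, minus strand) and Cox7a1 (chromosome 7, 30184144 to 30186078, plus strand) are isoforms typical of heart, muscle and brown fat. Among the fibroblast subsets, Cox8b was highest in Fabp4/Lpl and Cox7a1, at a low level, in Dpp4/Pi16.
Ndufa4, chr6:11907498-11907700, minus strand: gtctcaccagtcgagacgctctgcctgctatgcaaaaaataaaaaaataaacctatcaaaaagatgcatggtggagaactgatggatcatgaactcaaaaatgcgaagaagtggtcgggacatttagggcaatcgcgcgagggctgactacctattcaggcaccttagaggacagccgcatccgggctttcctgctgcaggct
Atp5g2, chr15:102671067-102671096, minus strand: tccggccgcgcaTGCGCAgagccttccctc
Cox8b, chr7:140900447-140900696, minus strand: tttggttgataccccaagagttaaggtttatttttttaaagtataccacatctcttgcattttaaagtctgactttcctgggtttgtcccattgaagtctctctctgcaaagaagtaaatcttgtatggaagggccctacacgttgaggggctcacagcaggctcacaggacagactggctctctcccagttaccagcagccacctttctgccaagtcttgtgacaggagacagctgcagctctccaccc
Cox7a1, chr7:30183921-30184143, plus strand: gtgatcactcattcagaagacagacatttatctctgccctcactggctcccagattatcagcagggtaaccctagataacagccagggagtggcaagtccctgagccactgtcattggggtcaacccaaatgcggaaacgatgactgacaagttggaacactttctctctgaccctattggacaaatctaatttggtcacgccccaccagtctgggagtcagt
Capitals mark TGCGCA, the core of the sequence bound by NRF1, a factor known for driving nuclear respiratory chain genes. It reads the same on both strands and begins 37 bases before the RefSeq start of Atp5g2. In GENCODE these bases lie in an exon of Atp5g2, since a transcript annotated there starts further upstream. In RefSeq windows of 300 bases (250 before to 50 after the start), 16 of the 66 members with an entry held TGCGCA (24.2%), against 1759 of 17492 protein-coding genes (10.1%). CCGGAAG, a core for ETS factors such as GABP, was in 13 of 66 (19.7%) on either strand, against 2081 of 17492 (11.9%). Neither was in the windows of Ndufa4, Cox8b and Cox7a1, which says only that these letters are not there.

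Levels differed widely between the members in the fibroblasts. Averaged over the fibroblast subsets, the highest complex I genes were Ndufa13, a small accessory subunit, at 311 CPM and, by its symbol, Ndufa4 at 295 CPM. In complex III these were Uqcrh (406 CPM) and Uqcrb (219 CPM), in complex IV Cox8a (528 CPM) and Cox6c (500 CPM), and in the ATP synthase Atp5e (531 CPM) and Atp5l (397 CPM). Levels were counted from 3′ ends and not divided by gene length. Atp5s and Atp5sl, which share the symbol stem but are not core ATP synthase subunits, stood at 5.62 and 5.67 CPM. The tissue-restricted Cox6a2 averaged 0.194 CPM, the testis isoform Cox8c had 3 UMIs in the gated sums, and Cox7b2 had none.

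The first question was whether E2 moved the summed level of the 77 genes. In the Fabp4/Lpl subset, which carries the fatty acid binding protein and lipoprotein lipase genes of the fat-forming lineage, all 6 E2 or E2 + P4 libraries lay above the 3 libraries without hormone. Without hormone the sums were 12112 CPM with no PBDE, 12624 at low PBDE and 11469 at high PBDE. With E2 they were 14890, 14029 and 13103 CPM in the same order, and with E2 + P4 15878, 14018 and 13468 CPM. VCD_E2_ICI stood at 12646, Intact at 13171 and VCD_Vehicle_NormEnv at 12723 CPM. VCD_E2_ICI, a single library, thus lay just above the 3 layout libraries without hormone and below all 6 with it. It was also just below VCD_Vehicle_NormEnv, which had no hormone. The file ending of VCD_E2_ICI is XCSCR, while that of VCD_Vehicle and VCD_E2 is X3SC3. ICI and the ending thus cannot be told apart in its difference from VCD_E2. The log2 ratio of the mean of E2 and E2 + P4 to no hormone was 0.34, 0.15 and 0.21 at the 3 PBDE levels, or 0.24 ± 0.10 (SD, n = 3 PBDE levels).

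The Tnc/Mfap4 subset, gated on genes for a matrix glycoprotein and a microfibril protein, had the widest range. Its sums without hormone were 11683, 11921 and 12283 CPM with no, low and high PBDE. With E2 they were 15805, 13811 and 12627 CPM and with E2 + P4 16992, 15165 and 12757 CPM. The groups did not overlap, but the log2 ratio was 0.49 with no PBDE, 0.28 at low PBDE and 0.05 at high PBDE, or 0.27 ± 0.22 (SD, n = 3). Without VCD_Vehicle the mean was 0.16, and without any other single library it was 0.25 to 0.38. VCD_E2_ICI stood at 12462, Intact at 12938 and VCD_Vehicle_NormEnv at 12867 CPM. VCD_Vehicle_NormEnv, which had no hormone, was thus above the high-PBDE libraries with E2 and with E2 + P4. This subset rested on 13 to 77 cells a library, and its cells were deeper with hormone: the median UMIs per cell ran from 7004 to 9382 without hormone and from 14877 to 26714 with it. The part of depth in this result was not tested, since no sum of at least 10 cells was left in enough libraries when cells were held to 10000 to 20000 UMIs.

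In the Gdf10/F3 subset the sums without hormone were 12738, 12244 and 10804 CPM with no, low and high PBDE. They were 13777, 13669 and 12116 CPM with E2 and 15043, 13243 and 11910 CPM with E2 + P4. Each hormone library was above the library without hormone at its own PBDE level, although the groups overlapped, and the log2 ratio was 0.16 ± 0.02 (SD, n = 3). VCD_E2_ICI was at 12105 CPM and Intact at 12607 CPM. VCD_Vehicle_NormEnv, which had no hormone, was at 13083 CPM, above the 3 libraries without hormone and within the range of those with it.

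The Dpp4/Pi16 subset, the fibroblasts with stem-like markers, differed with hormone by less than its spread. The sums were 12855, 12529 and 12001 CPM without hormone, 13580, 13018 and 12125 with E2 and 13014, 12212 and 11575 with E2 + P4. The log2 ratio was 0.01 ± 0.03 (SD, n = 3), and 4 of 6 hormone libraries were above their counterpart. Immune cells had the highest sums, from 15117 to 16344 CPM without hormone, 15428 to 16213 CPM with E2 and 15793 to 17830 CPM with E2 + P4, and a log2 ratio of 0.05 ± 0.01 (SD, n = 3). Within them, T-cell-gated cells (1833) had a mean sum of 16029 CPM without hormone. Macrophage-gated cells (536) had 12585 CPM, near the 12462 CPM of the Dpp4/Pi16 subset, so the high sum did not hold for every kind of immune cell. The log2 ratio was 0.04 ± 0.03 in T-cell-gated and 0.15 ± 0.13 in macrophage-gated cells (SD, n = 3). In these sums, more cells of one kind and more RNA per cell cannot be told apart.

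**Figure D1:**
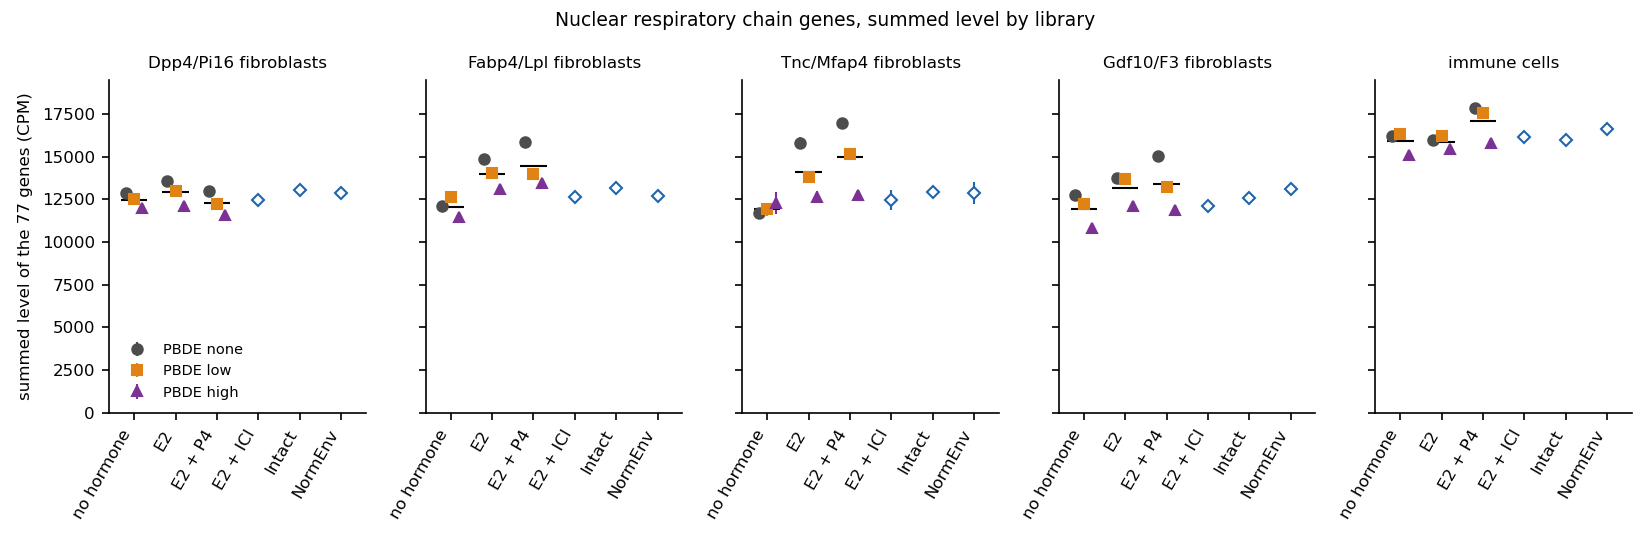
Summed level of the 77 genes in CPM (y axis, from 0) in each library for 4 fibroblast subsets and immune cells, with hormone state on the x axis, PBDE level by colour and shape, counting error (95% Poisson) as error bars and the mean of 3 libraries as a black bar. In the Fabp4/Lpl and Tnc/Mfap4 panels the E2 and E2 + P4 libraries lie above all 3 layout libraries without hormone. VCD_E2_ICI (open diamond) lies between these groups, at 12646 and 12462 CPM. VCD_Vehicle_NormEnv, which also had no hormone, lies above VCD_E2_ICI in both panels. In the Tnc/Mfap4 panel it also lies above the high-PBDE libraries with E2 and with E2 + P4. VCD_E2_ICI is a single library with the file ending XCSCR, while VCD_E2 has X3SC3.

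By complex, assigned by symbol so that Ndufa4 counts in complex I, the Fabp4/Lpl difference was spread over the chain. The log2 ratio was 0.24 ± 0.11 for complex I, 0.26 ± 0.11 for complex III, 0.21 ± 0.13 for complex IV and 0.24 ± 0.07 for the ATP synthase (SD, n = 3). Hormone and no-hormone libraries overlapped for complex IV and not for the other complexes. For the Tnc/Mfap4 subset the ratios were 0.26 ± 0.24, 0.30 ± 0.24, 0.23 ± 0.20 and 0.31 ± 0.22 in the same order, and its groups overlapped for complex I and complex III. In the Gdf10/F3 subset complex III, which passes electrons to cytochrome c, had the highest ratio at 0.23 ± 0.03, and its groups did not overlap. Complex III also did not overlap in immune cells, at 0.09 ± 0.01, but narrowly: the highest sum without hormone was 1650 CPM and the lowest with it 1670 CPM. It overlapped in T-cell-gated cells (0.04 ± 0.05) and in macrophage-gated cells (0.16 ± 0.17).

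**Figure D2:**
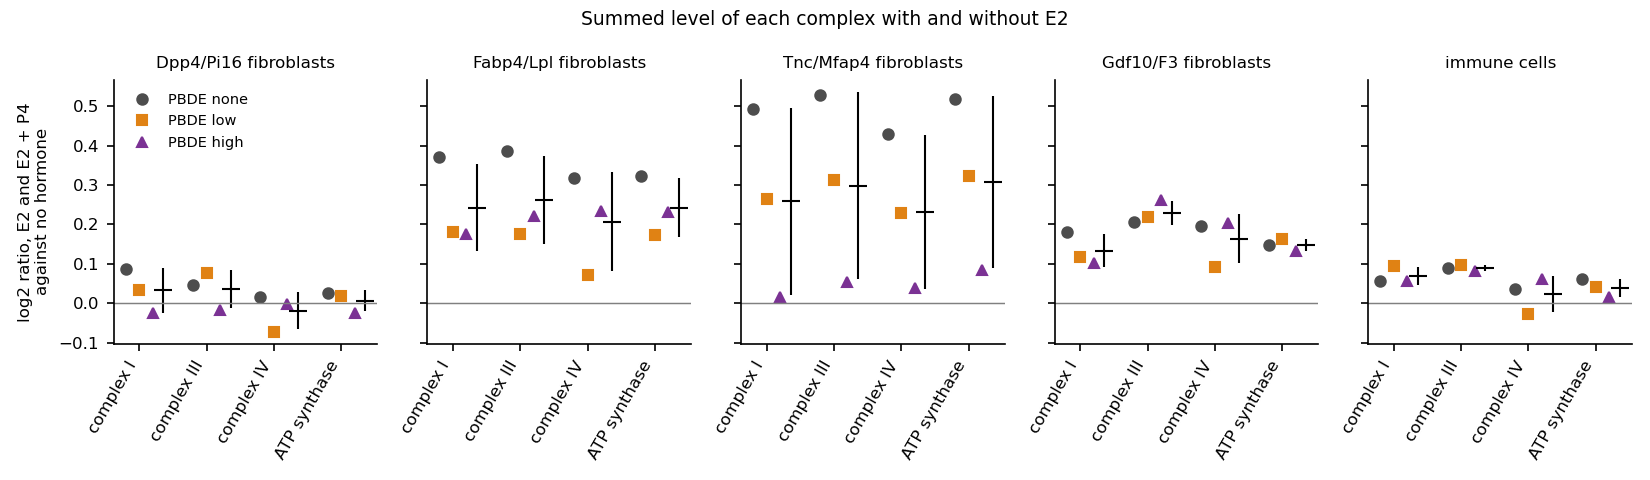
Log2 ratio of the summed level with E2 and E2 + P4 to that without hormone (y axis) for each complex (x axis) in 4 fibroblast subsets and immune cells, with 1 point for each PBDE level and the mean ± SD of 3. In Fabp4/Lpl fibroblasts the 4 complexes have means of 0.21 to 0.26, while the sum over all complexes is 0.01 in Dpp4/Pi16 fibroblasts.

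Each gene was then tested with edgeR's quasi-likelihood test (additive hormone and PBDE factors, 4 residual degrees of freedom), adjusted over all genes tested. In the Fabp4/Lpl subset 11 of 74 tested members rose with E2 at an adjusted p under 0.05, against 8.69% of all genes tested. The median log2 fold change was 0.15 over the members and -0.02 over all genes, and 67 of 74 members had a positive value. By symbol, with Ndufa4 in complex I, the genes called were 6 of 36 for complex I, 1 of 8 for complex III, 1 of 13 for complex IV and 3 of 17 for the ATP synthase. Leaving out VCD_Vehicle gave 5 calls (4 higher and 1 lower), VCD_E2_P4 or VCD_Low_E2 6, VCD_E2 or VCD_High_PBDE 7, and any other layout library 9. Median UMIs per cell were 13971 to 15572 without hormone and 16534 to 22548 with it, and among cells of 10000 to 20000 UMIs the log2 ratio of the sums was 0.19, with 3 calls.

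Ndufa4 led in this subset. It stood at 236, 237 and 237 CPM without hormone with no, low and high PBDE, at 375, 358 and 331 CPM with E2 and at 402, 358 and 361 CPM with E2 + P4. The groups were far apart, and VCD_E2_ICI (283 CPM), Intact (284 CPM) and VCD_Vehicle_NormEnv (254 CPM) lay between them. The log2 fold change was 0.56 ± 0.07 (SE), with an adjusted p of 0.0017 in edgeR.

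Atp5g1 (ENSMUSG00000006057, chromosome 11, 96068852 to 96075670, minus strand) and Atp5g2 encode the same mature c-ring protein with different import signals. Atp5g1 stood at 175, 165 and 141 CPM without hormone, at 236, 217 and 189 with E2 and at 276, 247 and 245 with E2 + P4. Its log2 fold change was 0.48 ± 0.07 (SE, edgeR adjusted p = 0.00283). Among cells of 10000 to 20000 UMIs it was 0.30 and was not called (edgeR adjusted p = 0.0663). All 6 hormone libraries lay above the 3 without, and VCD_E2_ICI was at 169 CPM. Atp5g2 stood at 188, 214 and 213 CPM without hormone, 267, 269 and 309 with E2 and 287, 287 and 298 with E2 + P4 (0.42 ± 0.07, SE, edgeR adjusted p = 0.00657). Unlike Atp5g1, it stood at 259 CPM in VCD_E2_ICI, above all 3 libraries without hormone.

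Uqcrq (chromosome 11, 53427922 to 53430831, minus strand), a small complex III subunit near the ubiquinone site, stood at 141, 145 and 133 CPM without hormone, 201, 190 and 167 with E2 and 259, 198 and 217 with E2 + P4. Its log2 fold change was 0.48 ± 0.09 (SE, edgeR adjusted p = 0.0075). By symbol, the only complex IV gene called was Cox5a (chromosome 9, 57521274 to 57532426, plus strand), a matrix-side subunit, at 110, 113 and 112 CPM without hormone and 134 to 176 CPM with it (0.35 ± 0.07, SE, edgeR adjusted p = 0.014). The groups of both genes did not overlap. The rest of the genes called were Atp5e of the ATP synthase stalk and the complex I genes Ndufc1, Ndufc2, Ndufb5, Ndufs3 and Ndufv2, with log2 fold changes of 0.26 to 0.33. Among cells of 10000 to 20000 UMIs, Ndufa4 (0.44), Atp5g2 (0.41) and Uqcrq (0.36) were the members still called. Cox5a was then at 0.25 (edgeR adjusted p = 0.131) and the other 6 at 0.20 to 0.35. With the file ending as a term, Ndufb5, Ndufc2, Ndufs3 and Ndufv2 were at 0.22 to 0.32 and no longer called (edgeR adjusted p of 0.0989 to 0.205).

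In the Tnc/Mfap4 subset 8 of 69 tested members rose with E2, against 7.49% of all genes tested, and 1 fell, against 8.89%. The share that rose was thus near that of all genes, while the median log2 fold change was 0.22 over the members and 0.00 over all genes, with 55 of 69 positive. Cox5a stood at 47.7, 66.2 and 86.1 CPM without hormone, 135, 131 and 79.5 with E2 and 217, 173 and 124 with E2 + P4. The high-PBDE E2 library thus lay within the range without hormone, and the fitted log2 fold change was 1.19 ± 0.26 (SE, edgeR adjusted p = 0.00407). Uqcrq was called at 1.08 ± 0.27 (SE, edgeR adjusted p = 0.0107), Atp5g1 at 0.81 ± 0.20 (SE, edgeR adjusted p = 0.00859) and Ndufa4 at 0.80 ± 0.20 (SE, edgeR adjusted p = 0.0103). Ndufa4 did not overlap, at 139 to 267 CPM without hormone and 284 to 434 with it, nor did Atp5g1, at 123 to 190 and 194 to 360 CPM, whereas Uqcrq did. In VCD_Vehicle_NormEnv, Atp5g1 was at 296 CPM and Ndufa4 at 254 CPM, so without hormone Atp5g1 also reached the levels seen with it. Ndufa3, Ndufa12 and Ndufc2 of complex I and Atp5g3, the third c-ring gene, rose by log2 values of 0.62 to 0.75.

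Cox7a2l (chromosome 17, 83501918 to 83517330, minus strand) was the member that fell. In its functional form, its product helps join complex III to complex IV in supercomplexes. Whether the strain used here makes that form was not tested. Cox7a2l stood at 356, 385 and 362 CPM without hormone, 223, 182 and 318 with E2 and 271, 215 and 227 with E2 + P4. The groups did not overlap, and the gene fell by 0.74 on the log2 scale (SE 0.19, edgeR adjusted p = 0.0125). VCD_Vehicle_NormEnv, which had no hormone, was also low at 203 CPM. Without VCD_Vehicle no member was called in this subset, with log2 fold changes of 0.70 for Cox5a and 0.56 for Uqcrq, without VCD_Low_PBDE 1 and without VCD_E2 5. With the file ending as a term 1 was called, Cox5a at 1.29, while Uqcrq was at 1.11, Ndufa4 at 0.66, Atp5g1 at 0.64 and Cox7a2l at -0.53.

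In the Gdf10/F3 subset 5 of 72 tested members rose with E2, against 1.71% of all genes tested. The median log2 fold change was 0.18 over the members and -0.01 over all genes, and 63 of 72 were positive. Ndufa4 stood at 270, 208 and 214 CPM without hormone, 366, 361 and 265 with E2 and 360, 326 and 284 with E2 + P4 (0.56 ± 0.10, SE, edgeR adjusted p = 0.012). Only the high-PBDE E2 library lay within the range without hormone. Atp5g2 stood at 245, 249 and 240 CPM without hormone and 289 to 372 with it, with no overlap (0.47 ± 0.10, SE, edgeR adjusted p = 0.0251).

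Ndufb5 of complex I (0.45 ± 0.10, SE, edgeR adjusted p = 0.0309) and Cox6b1, which bridges complex IV dimers (0.40 ± 0.10, SE, edgeR adjusted p = 0.0448), were also called in the Gdf10/F3 subset. The fifth gene was Uqcrfs1, the Rieske iron-sulfur protein of complex III. These calls were sensitive to single libraries: without VCD_Low_PBDE none was made. Leaving out VCD_Vehicle, VCD_Low_E2, VCD_High_PBDE or VCD_High_PBDE_E2_P4 gave 1, VCD_E2_P4 2, and VCD_E2, VCD_Low_E2_P4 or VCD_High_PBDE_E2 3. None was called with the file ending as a term, and 1 among cells of 10000 to 20000 UMIs. The log2 fold changes were then 0.46 and 0.50 for Ndufa4, 0.44 and 0.54 for Atp5g2, 0.37 and 0.46 for Ndufb5, and 0.47 and 0.40 for Cox6b1.

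In the Dpp4/Pi16 subset 2 of 73 tested members rose with E2, a smaller share than the 5.41% of all genes tested. The median log2 fold change was -0.01 over the members and 0.00 over all genes. Ndufa4 stood at 278, 228 and 243 CPM without hormone, 370, 348 and 290 with E2 and 299, 293 and 251 with E2 + P4, which overlapped (0.28 ± 0.07, SE, edgeR adjusted p = 0.0413). Atp5g2 stood at 267, 261 and 255 CPM without hormone, 316, 296 and 329 with E2 and 304, 316 and 334 with E2 + P4, with no overlap (0.26 ± 0.07, SE, edgeR adjusted p = 0.0461). Neither was called when any 1 layout library was left out, except that 1 was called without VCD_High_PBDE_E2, and neither was called with the file ending as a term or in cells of 10000 to 20000 UMIs. Their log2 fold changes were then 0.22 and 0.25 for Ndufa4 and 0.31 and 0.21 for Atp5g2.

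In immune cells edgeR called 0 of 74 members for E2, against 0% of all genes tested. At an unadjusted p under 0.05 there were 5, against 8.17% of all genes, DESeq2 called 0, and the median log2 fold change was 0.06 over the members and 0.00 over all genes. Over the fibroblast subsets 17 different members were called. The share of all genes called in at least 1 subset is not given, so this count has no base beside it. Of all genes tested, 5.41%, 8.69%, 7.49% and 1.71% rose in the Dpp4/Pi16, Fabp4/Lpl, Tnc/Mfap4 and Gdf10/F3 subsets. In the Dpp4/Pi16, Fabp4/Lpl and Tnc/Mfap4 subsets 4.78%, 7.76% and 8.89% fell. Ndufa4 was called in all 4 subsets, Atp5g2 in 3, and Atp5g1, Cox5a, Ndufb5, Ndufc2 and Uqcrq in 2 each. The subsets come from the same libraries, so a library that stands apart enters each of them. Endothelial cells had too few cells for a test of hormone or PBDE.

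**Figure D3:**
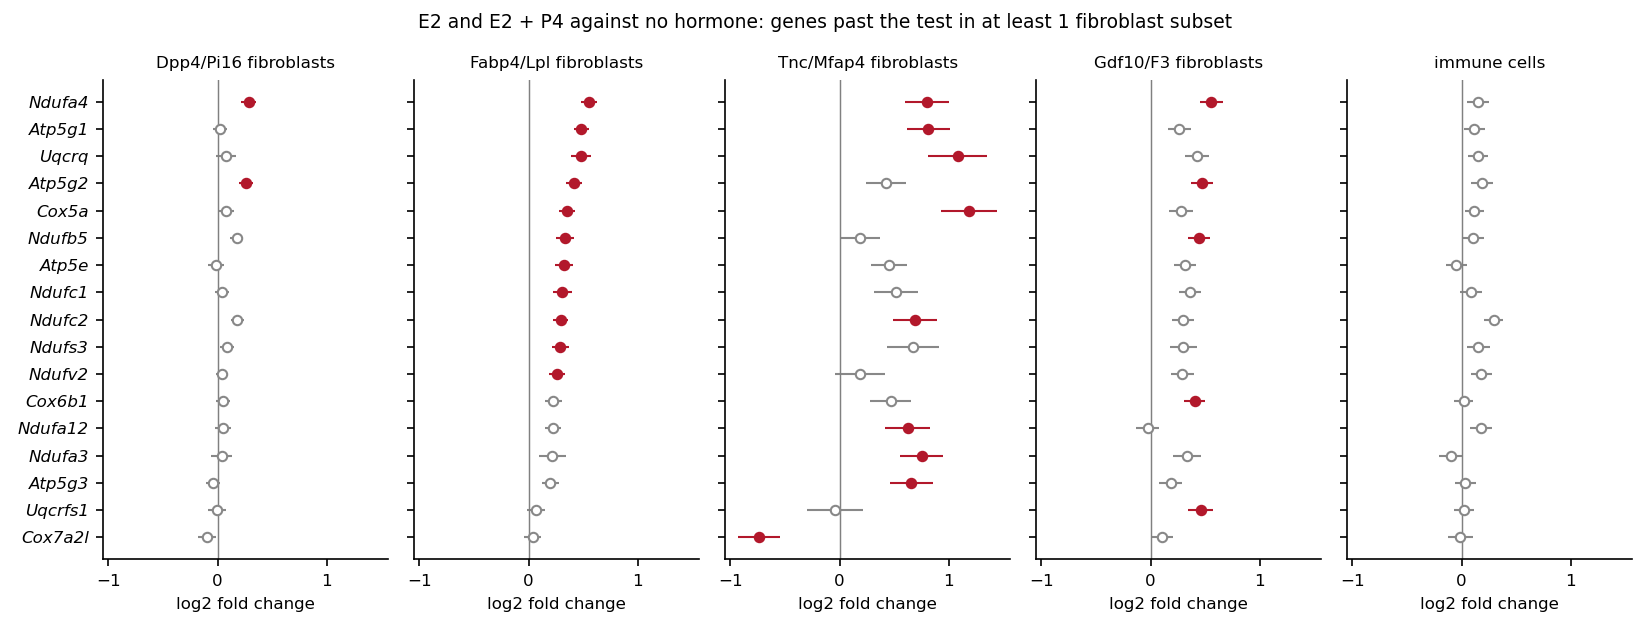
Log2 fold change (x axis, ± SE) with E2 or E2 + P4 against no hormone for the 17 members called in at least 1 fibroblast subset (y axis), in 4 subsets and immune cells, with filled red points at an edgeR adjusted p under 0.05. Ndufa4 is filled in all 4 fibroblast panels, at 0.56 in Fabp4/Lpl, 0.80 in Tnc/Mfap4, 0.56 in Gdf10/F3 and 0.28 in Dpp4/Pi16 fibroblasts, and Cox7a2l is filled on the negative side in Tnc/Mfap4 fibroblasts.

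The difference in the E2 effect between the Tnc/Mfap4 and Dpp4/Pi16 subsets was tested as an interaction. It was positive past the threshold for 4 of 74 members, against 2.1% of all genes tested, with a median log2 difference of 0.28 over the members and 0.02 over all genes. At an unadjusted p under 0.05, in either direction, there were 25 of 74, against 17.6%. The 4 were Cox5a, Uqcrq, Atp5g1 and Ndufa3, with differences of 0.76 to 1.10. None was called without VCD_Vehicle, VCD_Low_PBDE or VCD_Low_E2_P4, and 2 were called without VCD_E2_P4 or VCD_High_PBDE. The depth of the Tnc/Mfap4 cells differed by hormone as given above, and among cells of 10000 to 20000 UMIs, where fewer Tnc/Mfap4 sums were left, none of the differences was called. Their values there were 0.70 for Cox5a, 0.99 for Uqcrq, 0.75 for Atp5g1 and 0.75 for Ndufa3. The difference for Ndufa3 was 0.48 with gates of 2 UMIs and 0.36 with cells of more than 1 gate pair kept, and it was not called in either.

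Other mitochondrial gene lists were set beside the chain. Of all genes tested with E2, 8.69% rose and 7.76% fell in the Fabp4/Lpl subset, 7.49% rose and 8.89% fell in the Tnc/Mfap4 subset, and 4.78% fell in the Dpp4/Pi16 subset. The mitochondrial ribosome genes, which translate the subunits encoded in mitochondrial DNA, had a log2 ratio of summed levels of 0.25 ± 0.07 (SD, n = 3) in the Fabp4/Lpl subset. There 11 of 77 tested rose and 1 fell. The ratio was 0.41 ± 0.11 in the Tnc/Mfap4 subset, and 8 of 64 rose. The mitochondrial ribosome in the Gdf10/F3 subset had 0.17 ± 0.03 and the cytosolic ribosome 0.15 ± 0.10, beside 0.16 ± 0.02 for the 77 genes. For the Dpp4/Pi16 subset the ratio was 0.10 ± 0.05 for the mitochondrial ribosome, with 6 of 6 hormone libraries above their counterpart, and 0.01 ± 0.03 for the 77 genes, with 4 of 6. Of the cytosolic ribosome genes 3 of 83 rose there, while 11 of 83 fell in the Tnc/Mfap4 subset, with a ratio of -0.17 ± 0.20. Assembly factors, which build the complexes, had a ratio of 0.20 ± 0.07 in the Fabp4/Lpl subset, where 6 of 38 rose. Complex II had 1 of 4 genes rise there and the citric acid cycle 1 of 13. Glycolysis had 2 of 14 rise and 1 fall, with a ratio of 0.07 ± 0.03 but a median log2 fold change of -0.05.

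The 13 subunits encoded in mitochondrial DNA are given here apart from the nuclear genes. In the Dpp4/Pi16 subset their ratio was -0.32 ± 0.29 and 6 of 13 fell, and in the Fabp4/Lpl subset it was 0.00 ± 0.15 and 2 of 13 fell. Of the 13, 2 fell in the Tnc/Mfap4 subset, with a sum ratio of 0.02 ± 0.06 but a median log2 fold change of -0.10, so sum and median differed in sign. The cells were filtered on their mitochondrial share, which these genes make up. The regulators of mitochondrial biogenesis had ratios of -0.13 in the Dpp4/Pi16, -0.09 in the Fabp4/Lpl, -0.01 in the Tnc/Mfap4, -0.18 in the Gdf10/F3 subset and -0.16 in immune cells. Nrf1, which binds the TGCGCA core, fell by 0.36 on the log2 scale in the Dpp4/Pi16 subset (SE 0.06, edgeR adjusted p = 0.0175). Among subunits outside the rule, Cox4i1 was not called in any E2 comparison, Ndufab1 had 0.21 ± 0.07 in the Fabp4/Lpl subset (SE, edgeR adjusted p = 0.068), and Ndufa4l2, a hypoxia-linked relative of Ndufa4, fell by 0.60 on the log2 scale in the Gdf10/F3 subset (SE 0.13, edgeR adjusted p = 0.0251).

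**Figure D4:**
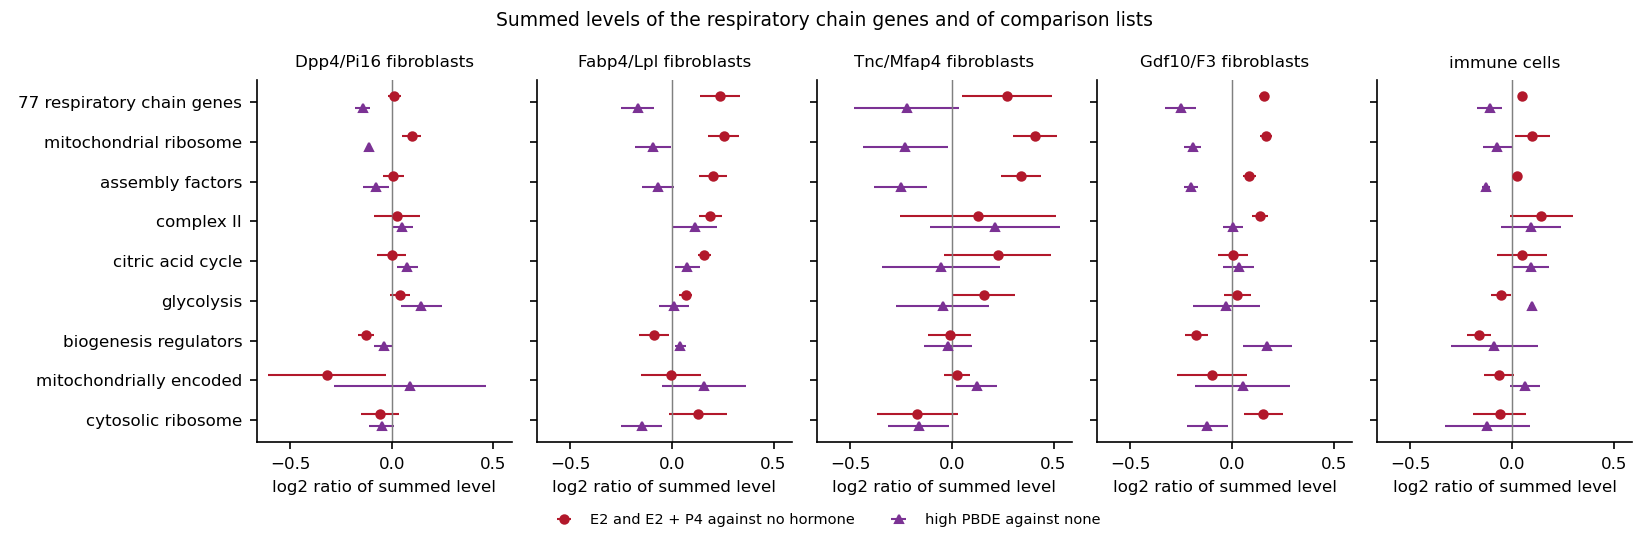
Log2 ratio of summed levels (x axis, mean ± SD of 3) for the 77 genes and the comparison lists (y axis) in 4 fibroblast subsets and immune cells, with E2 and E2 + P4 against no hormone as red circles and high PBDE against none as purple triangles. In the Fabp4/Lpl panel the 77 genes lie at 0.24 and the mitochondrial ribosome genes at 0.25 for E2, and for high PBDE the 77 genes lie at -0.17 there and at -0.25 in Gdf10/F3 fibroblasts.

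Adding P4 to E2 gave no call among the members. edgeR called 0 members in the Dpp4/Pi16, Fabp4/Lpl, Tnc/Mfap4 and Gdf10/F3 subsets and in immune cells, against 0.0389%, 0.0973%, 1.47%, 0.08% and 0% of all genes tested. At an unadjusted p under 0.05 there were 1, 3, 3, 1 and 3, against 9.43%, 14.6%, 12.8%, 7.99% and 6.45% of all genes, and DESeq2 called 0 in each. The log2 ratio of the sums for E2 + P4 to E2 was -0.07 ± 0.02, 0.04 ± 0.05, 0.08 ± 0.06, 0.02 ± 0.09 and 0.10 ± 0.06 (SD, n = 3) in the same order. That of the Dpp4/Pi16 subset was below 0 by more than its spread, and those of the Tnc/Mfap4 subset and immune cells were above 0 by more than theirs. The ratio was 0.18 ± 0.06 in T-cell-gated cells, also above 0 by more than its spread, and 0.03 ± 0.06 in macrophage-gated cells. Low PBDE against none likewise gave 0 members by edgeR in each population, against 0%, 0%, 0%, 0.01% and 0% of all genes. At an unadjusted p under 0.05 there were 2, 0, 2, 1 and 0, against 3.95%, 2.74%, 3.11%, 4.55% and 3.31%, and DESeq2 called 0. The log2 ratios of the sums were -0.06 ± 0.03, -0.07 ± 0.12, -0.11 ± 0.12, -0.08 ± 0.09 and 0.00 ± 0.02 (SD, n = 3).

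At high PBDE the sums were lower than without PBDE. The log2 ratio was -0.14 ± 0.04 in the Dpp4/Pi16 subset, -0.17 ± 0.08 in the Fabp4/Lpl subset, -0.25 ± 0.08 in the Gdf10/F3 subset and -0.11 ± 0.06 in immune cells (SD, n = 3 hormone states), lower in 3 of 3 hormone states each. It was -0.22 ± 0.26 in the Tnc/Mfap4 subset, lower in 2 of 3. Cells were also shallower at high PBDE in the Dpp4/Pi16 subset (median UMIs per cell 15252 to 18776 against 18234 to 23150 without PBDE) and the Gdf10/F3 subset (10657 to 14010 against 13286 to 15571), in 3 of 3 hormone states each, and in the Fabp4/Lpl subset in 2 of 3 (13971 to 19284 against 14388 to 22548). In immune cells they were deeper in 3 of 3 (7408 to 9663 against 6947 to 7785). The median mitochondrial share was 2.00% to 3.25% against 1.94% to 2.57% in the Dpp4/Pi16 subset and 2.73% to 3.34% against 2.47% to 3.01% in the Gdf10/F3 subset, higher in 2 of 3 hormone states each but lower in the E2 pair (2.57% to 2.12% and 3.01% to 2.73%). In the Fabp4/Lpl subset it was 3.17% to 3.66% against 2.85% to 3.3%, again lower in the E2 pair, and in the Tnc/Mfap4 subset 3.85% to 4.05% against 3.28% to 3.85%, higher in 3 of 3. The part of depth and of the mitochondrial share in the result was not tested. All high-PBDE libraries have the file ending XCSCR. Within that ending and without hormone, VCD_High_PBDE was also below VCD_Vehicle_NormEnv in each of the 5 populations, a comparison of single libraries. The sums were 12001 against 12895 CPM in Dpp4/Pi16, 11469 against 12723 in Fabp4/Lpl and 12283 against 12867 in Tnc/Mfap4 fibroblasts. They were 10804 against 13083 in Gdf10/F3 fibroblasts and 15117 against 16626 in immune cells. VCD_Vehicle_NormEnv had possible PBDE exposure from cage plastics. Its cells were also deeper in the Dpp4/Pi16 (median UMIs per cell 18157 against 15252), Fabp4/Lpl (15896 against 13971), Tnc/Mfap4 (7830 against 7004) and Gdf10/F3 subsets (12696 against 10911). Its immune cells were shallower (7116 against 7408). Its median mitochondrial share was lower in each of the 5 populations. The shares were 2.62% against 3.25% in Dpp4/Pi16, 3.05% against 3.66% in Fabp4/Lpl and 3.56% against 3.86% in Tnc/Mfap4 fibroblasts. They were 2.89% against 3.34% in Gdf10/F3 fibroblasts and 3.54% against 3.73% in immune cells. The part of the file ending was not tested.

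Single members did not pass edgeR's test for high PBDE, with 0 called in the Dpp4/Pi16, Fabp4/Lpl, Tnc/Mfap4 and Gdf10/F3 subsets and immune cells, against 0.14%, 0.316%, 0.0613%, 0.42% and 0.00862% of all genes tested. At an unadjusted p under 0.05 there were 27 of 73, 47 of 74, 16 of 69, 42 of 72 and 9 of 74, against 19.7%, 17.9%, 8.47%, 13% and 7.46% of all genes tested. The median log2 fold changes were -0.13, -0.25, -0.32, -0.31 and -0.07, against 0.00, 0.02, 0.01, 0.01 and 0.00 over all genes, and 16, 7, 13, 6 and 19 members had positive values. DESeq2 called 5 members lower in the Dpp4/Pi16 subset (199 of all its 19391 genes, 1.03%), 14 in the Fabp4/Lpl subset (174 of 18659, 0.933%), 0 in the Tnc/Mfap4 subset (8 of 14969, 0.0534%), 2 in the Gdf10/F3 subset (38 of 16237, 0.234%) and 0 in immune cells. It was run without edgeR's filter on low counts. Its base thus holds low-count genes that edgeR left out, and its shares cannot be set directly beside those of edgeR. With edgeR, leaving out VCD_High_PBDE gave 4 calls and VCD_Vehicle 1 in the Fabp4/Lpl subset. In the Gdf10/F3 subset leaving out VCD_Low_PBDE gave 5, and VCD_Vehicle or VCD_Low_E2_P4 1.

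Atp5k, a small membrane subunit that holds ATP synthase dimers together, is given here because DESeq2 called it in 3 subsets, a choice made after its values were seen. It stood in the Fabp4/Lpl subset at 183, 230 and 236 CPM (no hormone, E2, E2 + P4) without PBDE, 192, 196 and 155 at low PBDE and 143, 150 and 169 at high PBDE. All high-PBDE libraries were below all no-PBDE libraries, while VCD_Vehicle_NormEnv was at 174 CPM, below each of the latter too. In edgeR its log2 fold change was -0.58 ± 0.13 there (SE, adjusted p = 0.0853), -0.54 ± 0.13 in the Dpp4/Pi16 subset (SE, adjusted p = 0.103) and -0.64 ± 0.13 in the Gdf10/F3 subset (SE, adjusted p = 0.0551). Atp5e was the other member called by DESeq2 in those 3 subsets, at -0.41 ± 0.10 in edgeR in the Fabp4/Lpl subset (SE, adjusted p = 0.093), where it stood at 495, 610 and 707 CPM without PBDE and 379, 538 and 541 CPM at high PBDE, which overlapped. Cox7b of complex IV, given because it had the lowest DESeq2 p in the Fabp4/Lpl subset, the only one where it was called, stood at 196, 246 and 265 CPM without PBDE and 155, 189 and 184 CPM at high PBDE in the Fabp4/Lpl subset (-0.51 ± 0.09, SE, edgeR adjusted p = 0.0544). The groups of Cox7b did not overlap.

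Populations were compared with the library as a block, each against the mean of the other fibroblast subsets. No member was used in a gate. Over 75 tested members, 37 were higher and 8 lower in the Dpp4/Pi16 subset (36.9% and 21% of all genes tested), 38 and 6 in the Fabp4/Lpl subset (27.9% and 14.2%), and 2 and 47 in the Tnc/Mfap4 subset (13.3% and 27.9%). They were 19 and 6 in the Gdf10/F3 subset (16.3% and 17.4%), 49 and 13 in immune cells (43.3% and 42.5%) and 9 and 21 in endothelial cells (16.3% and 19.4%). These splits depend on the scaling: with DESeq2's size factors in edgeR they were 10 and 21, 18 and 14, 12 and 13, 23 and 5, 53 and 10, and 17 and 7 in the same order. The median of all genes was itself 0.10, 0.07, -0.16, -0.04, 0.00 and -0.15 on the log2 scale, and the members named below kept their direction and call under that other scaling, which was not computed for Cox6a2 and Atp5sl. The members' medians were 0.10, 0.12, -0.25, 0.02, 0.22 and -0.12. The 44 calls in the Fabp4/Lpl subset became 29 without VCD_Low_E2, VCD_High_PBDE or VCD_High_PBDE_E2_P4. The 49 in the Tnc/Mfap4 subset became 28 without VCD_Low_E2 or VCD_High_PBDE_E2_P4, 29 without VCD_High_PBDE or VCD_High_PBDE_E2 and 30 without VCD_Vehicle_NormEnv, and the 30 in endothelial cells became 18 without VCD_Low_E2.

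Complex IV isoforms differed between subsets. Cox8b, the heart, muscle and brown fat isoform of the smallest subunit, was 5.88 ± 0.24 (log2, SE) higher in the Fabp4/Lpl subset (edgeR adjusted p = 2.71e-28). When cells with more than 1 gate pair were kept in each subset, the difference was 3.11. It had 3257 of the 72287 UMIs of Cox8b and Cox8a there, or 4.51% (95% exact interval 4.36 to 4.66, counting error only), and 1.94% to 6.54% by library. In the Dpp4/Pi16 subset it had 20 of 88549 (0.0226%), in Gdf10/F3 15 of 10920 (0.137%), and in immune cells 26 of 38401 (0.0677%). In the small Tnc/Mfap4 sums it had 7 of 3250 (0.215%), with up to 3.03% by library, within the Fabp4/Lpl range. In endothelial cells it had 4 of 984 (0.407%). Cox8b thus had a reference near 0 in the other fibroblast subsets, on which the log2 difference above and its p rest. Its level in Fabp4/Lpl fibroblasts was 23.9, 37.7 and 37.8 CPM without hormone (no, low, high PBDE), 43.3, 24.9 and 14 with E2 and 31.2, 11.5 and 19.6 with E2 + P4. Hormone and no-hormone libraries overlapped. Cox8a, its widespread partner, was also 0.29 ± 0.04 (SE) higher (edgeR adjusted p = 5.92e-09), 0.11 higher with cells of more than 1 gate pair kept and 0.18 higher with DESeq2's size factors.

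The markers of mature fat and muscle cells were summed in the same Fabp4/Lpl sums. The adipocyte list (Adipoq included, at no more than 0.126 CPM) ran from 0 to 0.732 CPM by library and the skeletal muscle list from 0 to 19.3 CPM, while the subset's own list ran from 1197 to 2901 CPM. The muscle list stood at 19.3 CPM in VCD_Vehicle_NormEnv, 13.4 in VCD_Low_E2_P4 and 8.48 in VCD_E2_P4, where Cox8b stood at 34.5, 11.5 and 31.2 CPM. It was at most 0.617 CPM in the other 9 libraries, where Cox8b ran from 14 to 43.3 CPM. Ppargc1a, a coactivator of mitochondrial biogenesis in brown fat and muscle, was 2.58 ± 0.24 (SE) higher there (edgeR adjusted p = 4.7e-13), and Ndufa4l2 was 2.52 ± 0.12 (SE) higher (edgeR adjusted p = 1.99e-24).

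Cox7a1, the heart and muscle partner of Cox7a2, was highest among the fibroblasts in the Dpp4/Pi16 subset, at 1.41 ± 0.17 (log2, SE) over the others (edgeR adjusted p = 2.33e-10). It made up 745 of 40031 UMIs of the pair, or 1.86% (95% exact interval 1.73 to 2.00) and 1.27% to 2.54% by library, against 171 of 30766 (0.556%) in the Fabp4/Lpl subset. Its level ran from 2.58 to 5.43 CPM over the 12 libraries in the Dpp4/Pi16 subset and from 0.569 to 2.69 CPM in the Fabp4/Lpl subset, with 1 library of the latter in the former's range. By library its share ran from 0.351% to 1.48% in the Gdf10/F3 subset and from 0% to 4.55% in the small Tnc/Mfap4 sums (9 UMIs of Cox7a1 in all). These ranges overlapped with that of the Dpp4/Pi16 subset. Cox7a2l was also higher in the Dpp4/Pi16 subset, at 0.47 ± 0.06 (SE, edgeR adjusted p = 2.53e-10; 0.29 with cells of more than 1 gate pair kept), with 316 to 388 CPM against 227 to 290 in the Fabp4/Lpl subset. Macrophage-gated cells (536 cells) had a Cox7a1 share of 2.68%, 57 of 2124 UMIs.

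Cox6b2, an isoform best known from testis (chromosome 7, 4751792 to 4753094, minus strand), was 1.43 ± 0.13 (log2, SE) higher in the Gdf10/F3 subset (edgeR adjusted p = 4.15e-13), and 0.79 higher when cells with more than 1 gate pair were kept. Its share with Cox6b1 was 471 of 6530 UMIs, or 7.21% (95% exact interval 6.60 to 7.87) and 5.13% to 9.82% by library. In the other fibroblast subsets it was 2.62% to 3.08%, and in immune cells 1.90%. By library its level was 14.7 to 34.6 CPM in Gdf10/F3 against 6.06 to 13.9 CPM in Dpp4/Pi16 fibroblasts, with no overlap. In the small Tnc/Mfap4 sums (54 UMIs of Cox6b2 in all) it ran from 0 to 25.3 CPM and its share from 0% to 10.5%, which overlapped with Gdf10/F3.

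Other subunits differed less between the subsets. The Tnc/Mfap4 subset had lower Uqcrb, Uqcr11 and Cox5b, at log2 differences of -0.49, -0.48 and -0.42. The Gdf10/F3 subset had higher Ndufa6 and Atp5d, at 0.32 and 0.26, and lower Ndufa9, at -0.27. Ndufs5 and Atp5k were higher in the Fabp4/Lpl subset, at 0.38 and 0.33, and Ndufb7 and Ndufs4 in the Dpp4/Pi16 subset, at 0.31 and 0.27. Each of these passed the edgeR test at an adjusted p under 0.05. With cells of more than 1 gate pair kept they were smaller: Uqcrb, Uqcr11 and Cox5b at -0.25, -0.23 and -0.16, Ndufa6 and Atp5d at 0.12 and 0.11, Ndufs5 and Atp5k at 0.15 and 0.12, and Ndufb7 and Ndufs4 at 0.18 and 0.12. Ndufa9 was then at -0.08 and was no longer called (edgeR adjusted p = 0.142). With DESeq2's size factors Uqcrb, Uqcr11 and Cox5b were at -0.30, -0.29 and -0.22, and Ndufb7 and Ndufs4 at 0.20 and 0.16.

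Immune cells stood apart by single subunits. Cox5a was 1.61 ± 0.06 (log2, SE) higher than in the fibroblasts (edgeR adjusted p = 1.27e-30), at 308 to 384 CPM over the 12 libraries against 104 to 132 CPM in the Dpp4/Pi16 subset. Uqcrfs1, Ndufb7 and Atp5h were higher by 0.94, 0.99 and 0.65, and Ndufa5 and Ndufv1 lower by log2 differences of -0.58 and -0.43. Atp5s and Atp5sl went opposite ways, at -1.16 and 1.25 ± 0.11 (SE, edgeR adjusted p = 2.8e-15 for Atp5sl). In endothelial cells, which rest on 3 libraries, Ndufs8 was higher by 0.86 and Ndufa13 lower, at -0.77.

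Cox6a2, the heart and muscle isoform of Cox6a (chromosome 7, 128205435 to 128206387, minus strand), was also higher in immune cells, at 4.75 ± 0.44 (log2, SE, edgeR adjusted p = 3.88e-13). It had 24, 11, 0 and 13 UMIs in the Dpp4/Pi16, Fabp4/Lpl, Tnc/Mfap4 and Gdf10/F3 subsets, so this value and its p rest on a reference near 0. In immune cells its share was 174 of 12355 UMIs, or 1.41% (95% exact interval 1.21 to 1.63), and varied from 0.219% to 5.49% by library. Of the 174 UMIs, 28 fell to macrophage-gated cells (1.74% of 1613), 5 to T-cell-gated cells (0.126% of 3975), 45 to the 78 B-cell-gated cells (11.25% of 400), which leaves 96. Of the 45, 33 came from 5 cells of VCD_High_PBDE_E2, and without that library the B-cell-gated share was 3.59%. VCD_Low_E2_P4, which held 36 of the 78 cells, had a share of 2.65%, and without it the share was 16.5%. The skeletal muscle list ran from 0.309 to 154 CPM by library in immune cells, and its part in the Cox6a2 level was not tested. In Tnc/Mfap4 fibroblasts Cox6a2 had 0 of 1124 UMIs.

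**Figure D5:**
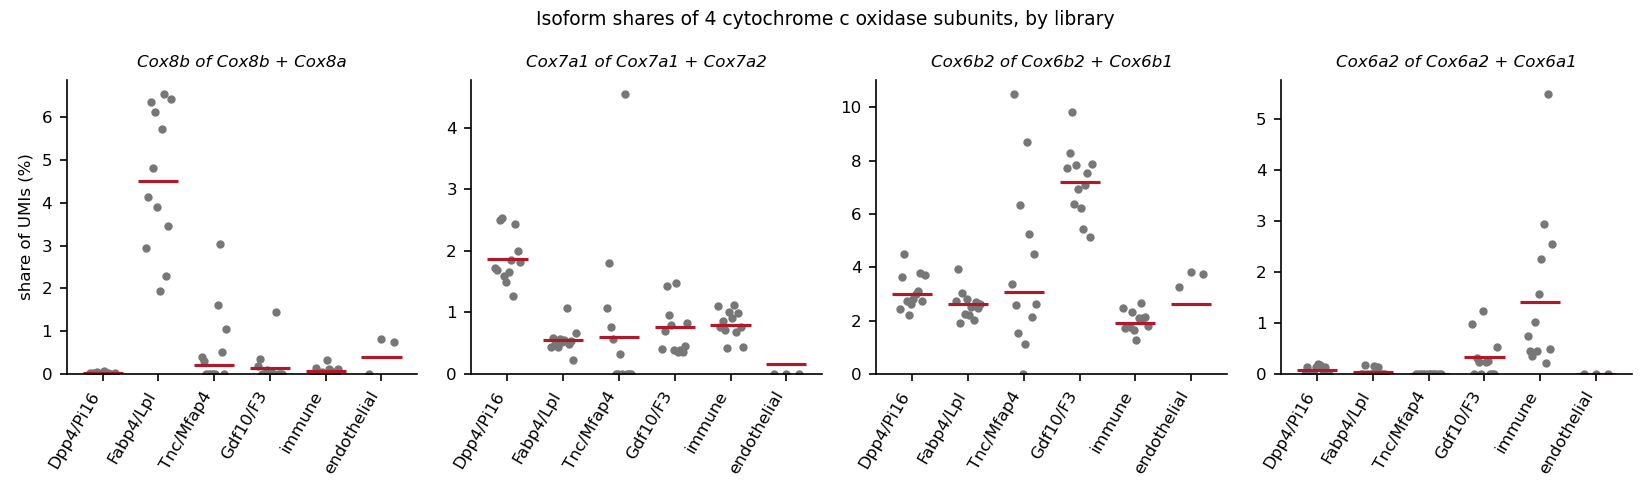
Share of UMIs (%, y axis from 0) that fall to Cox8b, Cox7a1, Cox6b2 and Cox6a2 among the UMIs of each isoform and its widespread partner, in 4 fibroblast subsets, immune and endothelial cells (x axis), with 1 dot a library and a red line for the share over all cells. The share over all cells is highest for Cox8b in Fabp4/Lpl (4.51%), for Cox7a1 in Dpp4/Pi16 (1.86%), for Cox6b2 in Gdf10/F3 fibroblasts (7.21%) and for Cox6a2 in immune cells (1.41%). By library, Tnc/Mfap4 fibroblasts overlap with these for Cox8b, Cox7a1 and Cox6b2, and Gdf10/F3 fibroblasts for Cox7a1 and Cox6a2.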

How the data were processed

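Single-cell libraries were made with the Chromium 3′ v3 kit. Per the labels, the authors deposited unnormalized UMI counts per gene and barcode, made by Cell Ranger 3.1.0 against mm10. Aligned reads were assigned to genes before deposit, so near-identical copies (processed pseudogenes of the members) may share or lose reads. A cell was kept when it had 500 genes or more, 1000 UMIs or more and a mitochondrial share of no more than 5%. Fibroblasts had at least 1 UMI each of Col1a1 and Pdgfra and none of Epcam, Krt14, Ptprc, Cd52, Pecam1 and Cspg4. Cells positive for exactly 1 of the pairs Dpp4 + Pi16, Fabp4 + Lpl, Tnc + Mfap4 and Gdf10 + F3 (19384 cells) formed the subsets, and cells with no pair (2949) or several (6691) were left out. Immune cells lacked Pdgfra, Epcam, Krt14 and Cdh5. Macrophages were gated on C1qa and Csf1r, T cells on Cd3e and Cd3g and B cells on Cd79a and Cd79b. No doublet caller was run, and an alternative left out the highest 5% of UMIs.

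Counts were summed per library and population (sums under 10 cells left out) and tested with edgeR 4.0.16 (TMM, filterByExpr, quasi-likelihood test, Benjamini-Hochberg over all genes tested, threshold 0.05) in R 4.3.3, checked on simulated counts. DESeq2 1.42.0 was an alternative. Intact, VCD_E2_ICI and VCD_Vehicle_NormEnv are given as values. The genes named were up to 4 called members in each direction per comparison, the 2 highest members of each complex, the tissue-restricted isoforms and the genes outside the symbol rule. The further called members of the E2 tests are also named, but the 65 named results counted below leave them out. The members and lists were chosen with earlier results of these data known. Positions are from GENCODE M21 (GRCm38), and 66 of the 77 members had a RefSeq promoter entry. The single-gene result of 1 member is not reported here.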

Additional observations from a re-analysis of the deposited data

Results flagged for a closer look

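The E2 effect differed between the Tnc/Mfap4 and Dpp4/Pi16 fibroblasts for 4 members by the interaction term of the edgeR fit. The log2 difference (Tnc/Mfap4 minus Dpp4/Pi16) was 1.10 ± 0.28 for Cox5a (SE, edgeR adjusted p = 0.024), 1.02 ± 0.26 for Uqcrq (SE, edgeR adjusted p = 0.0245), 0.85 ± 0.23 for Atp5g1 (SE, edgeR adjusted p = 0.0358) and 0.76 ± 0.22 for Ndufa3 (SE, edgeR adjusted p = 0.0498). Of 74 members tested, 25 had an unadjusted p under 0.05, against 17.6% of all genes tested. The call of Ndufa3 was lost in 7 of 8 alternatives and without 7 of 9 single libraries, and that of Atp5g1 in 3 of 8 and without 6 of 9.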

How the results depend on the processing

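Counts below are of members called by edgeR unless DESeq2 is named. For E2 in the Dpp4/Pi16 subset, 2 calls became 0 with no filter on low counts, 1 with gates of 2 UMIs, 1 without the highest 5% of UMIs, 0 with the file ending as a term, and 0 to 1 without a single library. The 11 in the Fabp4/Lpl subset became 20 with VCD_Vehicle_NormEnv added and 5 to 9 without a single library. With the file ending as a term, Ndufb5, Ndufc2, Ndufs3 and Ndufv2 lost their call there. The 9 in the Tnc/Mfap4 subset became 5 by DESeq2, 1 with the file ending and 0 to 9 without a library. In the Gdf10/F3 subset 5 became 2 by DESeq2, 3 with gates of 2 UMIs, 3 without the highest 5% of UMIs, 0 with the file ending and 0 to 3 without a library. The difference of the E2 effect (4) became 8 by DESeq2, 2 with gates of 2 UMIs and 0 to 5 without a library.

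For high PBDE, 0 calls became 5 by DESeq2 in the Dpp4/Pi16 subset. In the Fabp4/Lpl subset they became 7 with no filter, 14 by DESeq2, 1 with gates of 2 UMIs, 1 with VCD_Vehicle_NormEnv and 0 to 4 without a library. In the Gdf10/F3 subset they became 12 with no filter, 2 by DESeq2, 1 without the highest 5% of UMIs, 5 with VCD_Vehicle_NormEnv and 0 to 5 without a library. Between populations, 44 in the Fabp4/Lpl subset became 28 with no filter and 29 to 42 without a library. In the Tnc/Mfap4 subset 49 became 27 by DESeq2, 25 with its size factors in edgeR, 30 with no filter, 32 with gates of 2 UMIs, 30 without the highest 5% of UMIs and 28 to 49 without a library. In endothelial cells 30 became 18 to 30 without a library.

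The E2 log2 ratio of the sums in the Gdf10/F3 subset (0.16) was 0.21 with TMM library sizes, 0.21 as a mean of per-cell CPM, 0.12 with gates of 2 UMIs, 0.20 with a denominator free of ribosomal, mitochondrial and collagen genes, and 0.13 to 0.18 without a library. In immune cells (0.05) it was 0.013, 0.058 and 0.031 with the per-cell mean, the gates of 2 UMIs and that denominator, 0.039 without the highest 5% of UMIs and 0.0235 to 0.0759 without a library.

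After seeing the data, cells with more than 1 pair were also kept in each subset, which gave 4, 17 and 10 calls for E2 in the Dpp4/Pi16, Tnc/Mfap4 and Gdf10/F3 subsets, 1 for high PBDE in the Gdf10/F3 subset, and 16, 31 and 13 between populations in the Fabp4/Lpl, Tnc/Mfap4 and Gdf10/F3 subsets. Cells of 10000 to 20000 UMIs, also chosen then, gave 0, 3 and 1 calls for E2 in the Dpp4/Pi16, Fabp4/Lpl and Gdf10/F3 subsets, 0 for the difference of the E2 effect, and a ratio of 0.057 in immune cells. The Tnc/Mfap4 tests and the population comparison could not be fitted in these cells, nor could hormone or PBDE in endothelial cells under any setting. Of 1222 values of 65 named results (1 gene in 1 comparison each) under the alternatives, 1103 kept direction and call, 119 lost the call and 0 reversed. The lost calls were 74 of 280 for E2, 31 of 68 for the difference of the E2 effect and 14 of 874 between populations. The causes were not tested. The Tnc/Mfap4 and endothelial values rest on few cells.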
